A study of Saccharomyces cerevisiae with 21 samples.

Results

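The genes described here encode proteins of the large subunit of the cytosolic ribosome in the budding yeast Saccharomyces cerevisiae and carry symbols that begin with RPL. A gene was a member where at least 1 probe set of the Affymetrix YG_S98 array named it and no other gene, and the brightest such probe set, by mean log2 signal over all 21 arrays, stood for it. This gave 42 RPL genes among the 5656 genes with a probe set of their own. RefSeq lists 76 RPL genes for this organism, and all 42 symbols matched it. Of the others, 32 were named only by probe sets that name several genes. The 42 genes comprised 10 that exist as a single copy and 32 that formed 16 pairs of A and B copies.

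RNA came from the diploid strain BY4743, derived from S288C, which carries deletions at HIS3, LEU2 and URA3 in every group. The cells were grown in the rich medium YPD at 30 °C to an absorbance of 0.8, spun down and resuspended in YPD diluted 20-fold, and this held for all 7 groups of 3 arrays. The temperature of drying was 22 to 25 °C. Control cells were an aliquot of that suspension, 50% dry cells were taken after 18 h of drying in dishes of 15 ml, and dry cells once they had dried for 42 h and been stored for 72 h at a relative humidity of 20%. The other 4 groups were dry cells put back into the diluted YPD, pooled from 4 dishes, and sampled 15, 45, 90 and 360 min later. Nothing in the labels says if the 3 samples of each group came from separate cultures, and the p-values then measure only the spread between these samples, which may be technical.

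A ribosomal protein gene in growing yeast is among the most heavily transcribed genes of the cell, and the whole family is known to be turned down together when growth stops. Its promoters are occupied by the activators Rap1, Fhl1, Ifh1 and Sfp1, which answer to the TOR and protein kinase A pathways. Most large subunit proteins are made from a pair of near-identical genes left by an ancient genome duplication, so short array probes for one copy can also bind the RNA of the other.

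The values below are deposited probe set signals and differences of normalized log2 signal, in which 1 equals a 2-fold change. A gene is called higher or lower where limma's adjusted p is under 0.05 and the difference is at least 2-fold. The shares given beside gene counts are of all 9275 probe sets tested, including those that name no gene. Among the brightest probe sets of 5656 genes, 943 were lower and 949 higher in 50% dry against control cells. In dry against control cells 1168 were lower and 1228 higher, and at 360 min against control cells 1493 and 1042. At 360 min against dry cells 477 were higher and 844 lower. Signal levels of different probe sets depend on their probes and were not compared with each other. Every array was scaled to the same overall level, so a change is relative to the other transcripts, and in RNA from a whole culture a smaller share of cells with a transcript and less of it per cell cannot be told apart.

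The signal of URA3 was 0.5 to 5.8 on the 21 arrays and that of LEU2 was 6 to 107.5, while HIS3, which this strain background lacks only in part, read 126.5 to 874.5. Between arrays of one group, the correlation over probe sets was 0.984 to 0.992 in 6 groups and 0.967 to 0.977 at 360 min. Hybridization runs were not labelled but inferred here from the recorded hybridization times, with a gap of more than 5 min starting a new run. The 3 control arrays made up a run by this rule and were scanned on a day of their own. The 90 min and the 360 min arrays each made up a run of their own. For every comparison with control, 90 min or 360 min arrays, run and group cannot be told apart. The difference between the 3′ and 5′ probe sets of the actin gene ACT1, a measure of RNA integrity, averaged −0.57 ± 0.33 in control, 0.76 ± 0.26 in 50% dry and 0.94 ± 0.03 in dry cells, and 1.28 ± 0.09, 1.79 ± 0.02, 2.24 ± 0.24 and 2.71 ± 0.17 at 15, 45, 90 and 360 min (log2, SD, n = 3 each). It was higher at each later stage of the course, and its part in the results was not tested.

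Of the 42 RPL genes, 41 differed among the 7 groups by limma's F test, against a background of 82.5% of the 9275 probe sets tested. RPL genes were on the whole lower in 50% dry cells than in control cells, lower again in dry cells, at their lowest soon after water was added back, and partly higher again by 360 min. In 4 genes, RPL21A, RPL37A, RPL21B and RPL24B, the SD of the log2 signal within the control group was 1.80, 1.65, 1.57 and 1.45, above the limit of 1 for setting a probe set apart. The nearest genes inside that limit were RPL10 with 0.83, RPL31A with 0.78, RPL22A with 0.75 and RPL9B with 0.65. The median log2 signal of the 38 genes not set apart was 11.82, 11.95 and 12.07 on the control arrays, 10.41, 10.52 and 10.65 on the 50% dry arrays, and 9.33, 9.33 and 9.39 on the dry arrays. It was 9.07 to 9.09 at 15 min, 9.11 to 9.19 at 45 min, 9.18 to 9.73 at 90 min, where replicate 2 was the highest, and 10.07 to 10.41 at 360 min. The control arrays thus lay above all others, and the arrays of 15 and 45 min lay below all dry arrays.

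**Figure D1:**
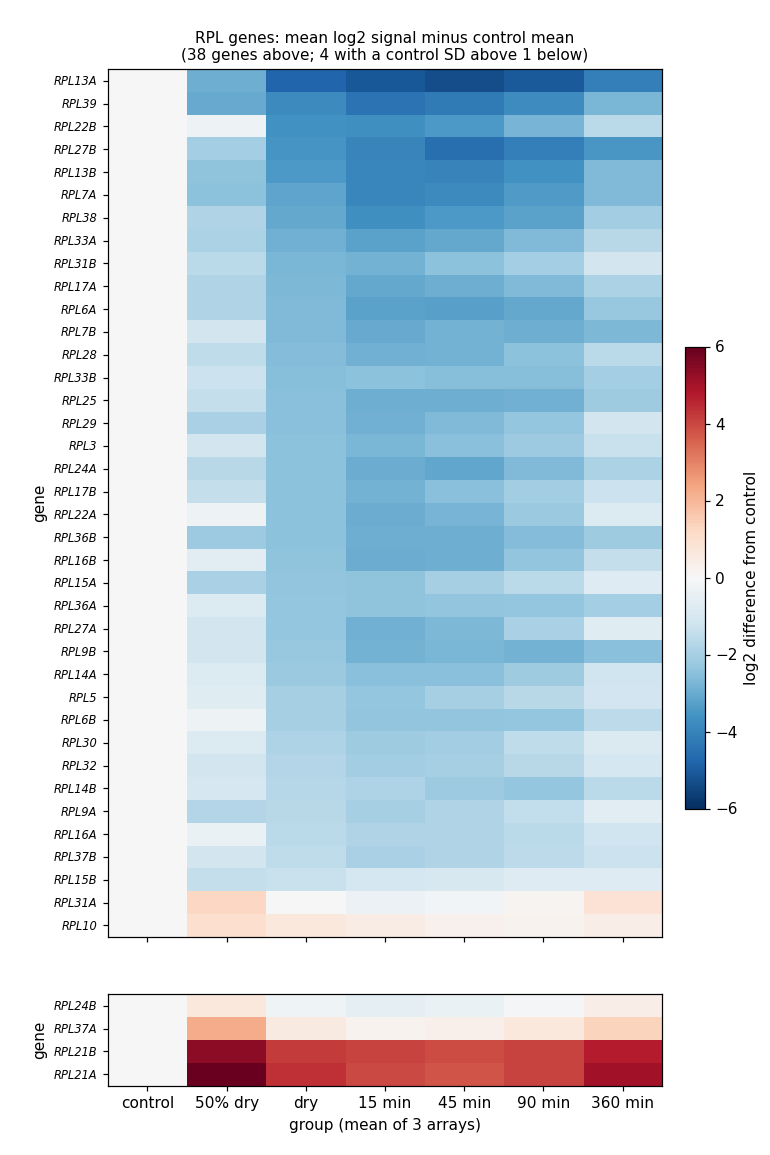
Mean log2 signal of each of the 42 RPL genes in the 7 groups minus its mean in control cells (3 arrays per group), with the 38 genes not set apart above and the 4 genes with a control SD above 1 below. Blue is lower and red is higher than control; the strongest blue belongs to RPL13A at 45 min, with a mean log2 signal of 6.97 at 45 min, against 12.31 in control cells, and the strongest red to RPL21A, whose difference in 50% dry cells was 5.92.

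Cells at 50% dryness, compared with control cells, cover the first stage of drying together with the 18 h in dilute medium. Of the 42 genes, 27 were called lower, 5 higher and 10 neither, where 13.9% of all probe sets were called lower and 13.1% higher. The median difference of the members was −1.12, and that of all probe sets was −0.02. Without the 4 genes set apart the counts were 27 lower, 2 higher and 9 neither, with a median of −1.36.

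RPL39, which encodes one of the smallest proteins of the subunit, near the tunnel through which the new chain leaves, had the largest fall. Its signal was 623, 571 and 618 in 50% dry cells, against 3509, 5075 and 4037 in control cells, a difference of −3.04 ± 0.13 (SE, adjusted p = 2.78e-13). RPL13A read 587, 667 and 815 in 50% dry cells, against 4062, 4276 and 4231 in control cells, and fell by 2.92 ± 0.17 on the log2 scale (adjusted p = 2.82e-11). Both genes lay far below every control array on all 3 dried arrays. RPL7A, whose protein is a conserved rRNA-binding component, read 662, 875 and 1057 in 50% dry cells, against 3162, 5253 and 3727 in control cells (−2.44 ± 0.21, adjusted p = 8.6e-09). The groups did not overlap for this gene either, and of the 3 probe sets that name RPL7A the others gave −2.83 and −0.12.

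At the other end, several genes had not moved past the threshold when the cells were 50% dry. RPL22B read 711, 734 and 752 in 50% dry cells, against 973, 964 and 839 in control cells (−0.32 ± 0.15, adjusted p = 0.08). Its partner RPL22A differed by −0.32 ± 0.24 (adjusted p = 0.281), and RPL6B by −0.30 ± 0.17 (adjusted p = 0.133). Rpl22 is a protein that yeast can grow without, and its copies had the largest falls of the next step.

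Of the genes not set apart, RPL31A and RPL10 were called in the opposite direction to the majority. RPL31A, whose protein sits beside the mouth of the exit tunnel, read 3050, 3062 and 3878 in 50% dry cells, against 980, 2730 and 1806 in control cells (1.22 ± 0.26, adjusted p = 0.00042). The groups did not overlap, but the lowest control array, replicate 1, decided the call, and without it the difference was 0.82 and below the fold minimum, as it was with the deposited scaling (0.96) and median-centred arrays (0.77). A second probe set that names only RPL31A gave the opposite result, with −1.49 ± 0.13 (adjusted p = 7.62e-09), and the mean of both gave −0.13. RPL10, whose protein is one of the last to join the subunit, read 4433, 4260 and 3205 in 50% dry cells, against 1509, 3921 and 1816 in control cells (1.00 ± 0.24, adjusted p = 0.00136). Control replicate 2 lay inside the range of the dried arrays for this gene, so the groups overlapped. RPL10 stood at the fold minimum and lost its call with the deposited scaling (0.83), with median-centred arrays (0.63), with 50% of the median added (0.97) and in a fit of only the arrays compared (adjusted p = 0.0517). Leaving out 1 array at a time gave 0.70 to 1.48, with no call without control replicate 1 or 3 or without replicate 1 or 2 of the 50% dry cells.

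The step to full dryness and storage took most members down again. Between dry and 50% dry cells, 27 of 42 genes were called lower, none higher and 15 neither by limma, while 5.05% of all probe sets were called lower and 3.06% higher, and 38 members had an unadjusted p under 0.05, as did 43.4% of all probe sets. The median difference was −1.10. In the run that held 1 dry and 3 of the 50% dry arrays, the median was also −1.10, 40 of 42 genes were below 0 and 26 were at least 2-fold lower.

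RPL22B fell the most in this step, to 75.7, 58.6 and 53.9 in dry cells, against 711, 734 and 752 in 50% dry cells (−3.30 ± 0.15, adjusted p = 1.12e-11). RPL22A read 584, 606 and 568 in dry cells, against 2155, 2489 and 2369 in 50% dry cells (−2.15 ± 0.24, adjusted p = 1.42e-06). Neither copy had been called at 50% dryness, and after complete drying RPL22A was 4.45-fold and RPL22B 9.83-fold lower than in 50% dry cells. RPL13A went on down, with 168, 202 and 222 in dry cells, against 587, 667 and 815 in 50% dry cells (−1.82 ± 0.17, adjusted p = 1.48e-07).

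Over the whole of drying, dry cells had 36 of 42 genes called lower than control cells, 2 higher and 4 neither, beside 17.5% of all probe sets in each direction. The median difference was −2.45 for the 42 genes and −2.48 for the 38 not set apart, of which 36 were lower and none higher; on all 36, each dry array lay below each control array, as it did for 34.6% of all probe sets. RPL13A fell by 4.74 ± 0.17 on the log2 scale, a 26.8-fold difference (adjusted p = 1.52e-14). RPL39 fell by 3.84 ± 0.13 (14.3-fold, adjusted p = 5.78e-15) and RPL22B differed by −3.62 ± 0.15 (12.3-fold, adjusted p = 1.31e-13). Among the 36 genes the difference of the first step was the larger in 23 and that of the second in 13, and 14 genes were called lower in both. RPL29, whose first step was −1.94 ± 0.11 and second −0.54 ± 0.11, is an example of an early fall, and RPL6B, with −0.30 ± 0.17 and then −1.67 ± 0.17, of a late one.

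**Figure D2:**
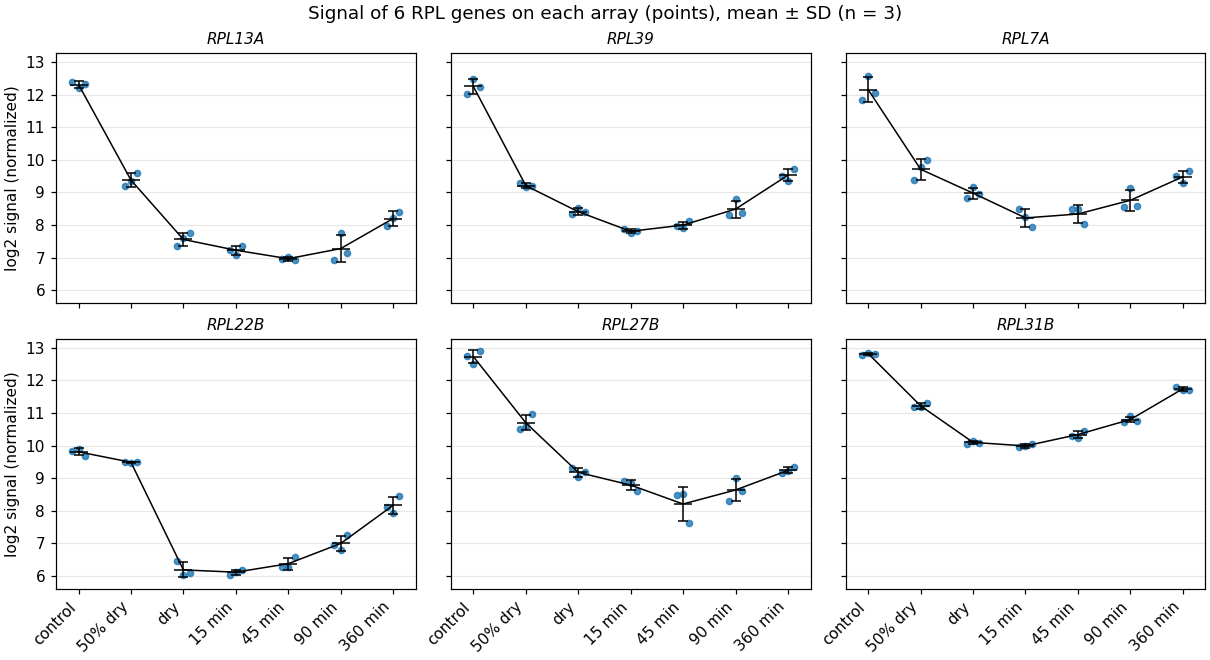
Normalized log2 signal of RPL13A, RPL39, RPL7A, RPL22B, RPL27B and RPL31B on each of the 21 arrays (points) with group mean and SD (bars, n = 3), in the order of the course. RPL22B stays near its control signal at 50% dryness and drops in dry cells, while the other 5 genes already lie below control at 50% dryness.

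The single-copy genes, where no partner copy can add to the signal, gave the same picture gene by gene. In dry against control cells, 9 of 10 were called lower, with a median of −2.49. RPL38, whose protein yeast can do without, differed by −3.06 ± 0.22, and RPL28, the gene in which cycloheximide resistance mutations arise, by −2.62 ± 0.13. RPL25, whose protein offers the docking site of the signal recognition particle, read 793, 790 and 817 in dry cells, against 3611, 3999 and 3852 in control cells (−2.52 ± 0.11, adjusted p = 4.02e-13). RPL3, which reaches into the peptidyl transferase centre, differed by −2.49 ± 0.14 and RPL29 by −2.49 ± 0.11. RPL5, the carrier of 5S rRNA, differed by −1.99 ± 0.14, RPL30, whose protein binds and restrains its own transcript, by −1.86 ± 0.16, and RPL32 by −1.77 ± 0.15. Thus 8 of these genes lay in a range of −1.77 to −3.06, RPL39 lay below it, and RPL10 was the one without a call (0.63 ± 0.24, adjusted p = 0.0285, under the fold minimum).

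After water was added back, no early difference in this family passed the threshold. Between 15 min and dry cells limma called none of the 42 genes, with 0.0647% of all probe sets called lower and 0.0539% higher, and 20 members had an unadjusted p under 0.05, beside 12.3% of all probe sets. The median was −0.33, and in 27 genes all 3 arrays of 15 min lay below all 3 dry arrays, as they did for 10.9% of all probe sets. In the run that held 2 arrays of each group the median was −0.36, with 39 of 42 genes below 0. Of the 38 genes not set apart, 27 had their lowest group mean at 15 min and 8 at 45 min.

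Between 45 and 15 min the median was 0.08. With the deposited scaling it was −0.01, beside −0.06 for all probe sets. No gene was called by limma, beside 0.0431% of probe sets higher and 0.0323% lower, and 7 members had an unadjusted p under 0.05, beside 12.7% of all probe sets. Between 90 and 45 min the median was 0.31, again with no call by limma, beside 0.0647% higher and 0.108% lower, and 18 members had an unadjusted p under 0.05, beside 18.3% of all probe sets. All 3 arrays of 90 min lay above all 3 of 45 min in 21 genes and in 12.4% of all probe sets. At 90 min against dry cells the median was 0.02. With the deposited scaling it was −0.05, beside −0.12 for all probe sets. Here limma called none of the 42 genes, and 10 had an unadjusted p under 0.05 (38.7% of all probe sets), while 2.09% of all probe sets were higher and 2.56% lower. The members were thus spread around their dry signals 90 min after water was added, from −0.61 to 0.81.

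By 360 min a part of the family had risen. Against 90 min, 6 of 42 genes were called higher, none lower and 36 neither, where 3.82% of all probe sets were called higher and 3.07% lower. The median difference was 0.75, and in 35 genes all 3 arrays of 360 min lay above all 3 of 90 min, as they did for 21.7% of all probe sets. The 6 calls were RPL22A with 1.41 ± 0.24 (adjusted p = 0.000179), RPL29 with 1.22 ± 0.11 (adjusted p = 2.64e-07), RPL27A with 1.22 ± 0.24 (adjusted p = 0.00069), RPL22B with 1.17 ± 0.15, RPL38 with 1.13 ± 0.22 and RPL39 with 1.04 ± 0.13. RPL22A read 1864, 1444 and 1496 at 360 min, against 529, 845 and 561 at 90 min. The count rests on the fold minimum and on single arrays: without replicate 2 of 90 min, the array with the highest member median of its group, 13 genes were called, and without replicate 1 of 360 min it was 10. With the deposited scaling RPL22B and RPL38 (0.93 each) and RPL39 (0.81) were under the fold minimum.

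Against dry cells, 12 of 42 genes were called higher at 360 min, none lower and 30 neither, beside 11.4% of all probe sets higher and 11.7% lower. The median was 0.75, and 39 of the 42 differences were above 0. RPL22B read 201, 183 and 263 at 360 min, against 75.7, 58.6 and 53.9 in dry cells (1.98 ± 0.15, adjusted p = 2.95e-09). RPL22A differed by 1.67 ± 0.24 (adjusted p = 1.08e-05). RPL31B read 4800, 4238 and 4146 at 360 min, against 1114, 1168 and 1118 in dry cells (1.64 ± 0.08, adjusted p = 4.32e-12). The other calls were RPL15A with 1.59, RPL27A with 1.57, RPL29 with 1.40, RPL33A with 1.22, RPL17B with 1.20, RPL3 with 1.16, RPL39 with 1.11, RPL14A with 1.05 and RPL28 with 1.00. Of these, RPL33A (0.93), RPL28 (0.84), RPL14A (0.81) and RPL39 (0.70) were under the fold minimum with the deposited scaling.

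The rise left most of the family below its control signal. At 360 min against control cells, 30 of 42 genes were called lower, 3 higher and 9 neither, beside 21.4% of all probe sets lower and 19.7% higher, with a median of −1.38. All 3 higher calls were genes set apart, and among the other 38 the count was 30 lower and 8 neither, with a median of −1.58. RPL13A still read 180, 228 and 252 at 360 min, against 4062, 4276 and 4231 in control cells (−4.11 ± 0.17, adjusted p = 1.72e-13). RPL27B read 449, 472 and 518 at 360 min, against 4835, 5114 and 5626 in control cells (−3.48 ± 0.21, adjusted p = 2.07e-11), and RPL39 differed by −2.72 ± 0.13 (adjusted p = 9.96e-13).

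The share of the log2 fall in dry cells that had been regained by 360 min differed widely among the 36 genes called lower in dry cells. Its median was 30.4%, with 16 genes under 25% and 8 over 50%. The 8 were RPL27A with 68.3%, RPL15A with 67.4%, RPL22A with 67.3%, RPL31B with 60.3%, RPL9A with 58.3%, RPL29 with 56.2%, RPL22B with 54.7% and RPL30 with 53.1%. At the low end stood RPL9B with −10.1%, RPL7B with −1.29%, RPL27B with 1.74% and RPL14B with 7.01%. Some copies of one protein therefore stood at opposite ends of this order, such as RPL27A and RPL27B, and RPL9A and RPL9B. The order depends on the probe set in genes with several of their own: the other one of RPL27A gave 44.9%, the others of RPL31B 105% and 81.2%, those of RPL7A 99% and 24.1% beside 16% for the one used, and those of RPL17B 99.5% and 44.1% beside 48.4%. These shares use the dry arrays for both the fall and the return and are given as a description.

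**Figure D3:**
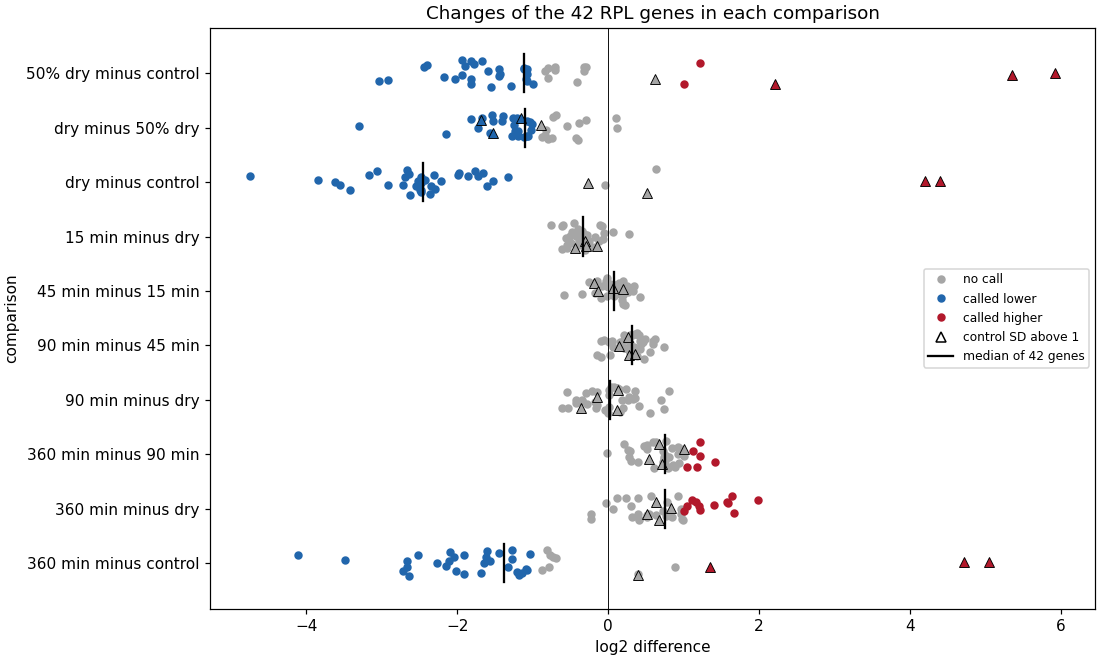
Log2 difference of each of the 42 RPL genes (points; triangles are the 4 genes with a control SD above 1) in the 10 comparisons, with the median as a vertical bar. Blue points were called lower and red ones higher; the cloud lies left of 0 in the comparisons of dried cells, close to 0 from 15 to 90 min, and right of 0 at 360 min against dry cells, where 12 genes were called.

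The A and B copies were set against each other within each array, as log2 signal of A minus log2 signal of B. Since the probe sets of 2 copies differ in brightness for reasons of their own, only the change of that difference between groups was tested, with limma on all 33 A and B symbol pairs of the array, of which 16 were RPL pairs. Near-identical copies can share RNA between their probes, so an unequal change is uncertain for any one pair. Over the 7 groups, 14 of the 16 RPL pairs differed in their course by the F test, and 12 of the 13 pairs without a set-apart copy, beside 84.8% of all 33 pairs. The share among RPL pairs was thus close to that of A and B pairs at large. The exceptions were RPL17 (adjusted p = 0.054) and RPL21 (adjusted p = 0.91).

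In 50% dry against control cells, 6 RPL pairs were called, beside 42.4% of the 33 pairs, and 2 of the 6 held a set-apart copy. The latter were RPL37, with the largest change of all (3.33 ± 0.53), and RPL24 (−2.28 ± 0.43). RPL31 had the largest change among the others: A minus B was 0.45, 0.51 and 0.99 in 50% dry cells, against −2.95, −1.47 and −2.09 in control cells, a change of 2.82 ± 0.25 (adjusted p = 2.85e-08). It rests on the RPL31A probe set that disagreed with the second one of that gene, with which the change was 0.11 (adjusted p = 0.481). RPL6 changed by −1.52 ± 0.24 (adjusted p = 2.37e-05), since RPL6A differed by −1.82 ± 0.22 and RPL6B by −0.30. RPL36 changed by 1.37 ± 0.30 (adjusted p = 0.000661), with RPL36B at −2.18 ± 0.15 and RPL36A at −0.80 ± 0.20. RPL7 changed by −1.36 ± 0.26 (adjusted p = 0.000171), with RPL7A at −2.44 ± 0.21 and RPL7B at −1.08 ± 0.22. With the RPL7A probe set that gave −0.12, the sign of this change turned, to 0.96 (adjusted p = 0.0128).

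In dry against control cells 7 RPL pairs were called, beside 42.4% of all pairs, again with 2 that held a set-apart copy, RPL24 (−2.21 ± 0.43) and RPL37 (2.04 ± 0.53). RPL13 had −1.71, −1.59 and −1.45 in dry cells, against −0.19, −0.23 and −0.35 in control cells, a change of −1.32 ± 0.16 (adjusted p = 1.18e-06). RPL31 changed by 2.68 ± 0.25 (adjusted p = 4.63e-08), or by 0.45 and without a call with the second RPL31A probe set, and RPL27 by 1.24 ± 0.23 (adjusted p = 0.000125). RPL22, with 2.64, 3.14 and 2.97 in dry cells, against 0.90, 2.09 and 2.34 in control cells, changed by 1.14 ± 0.30 (adjusted p = 0.00374), and RPL15 by −1.04 ± 0.19 (adjusted p = 0.00014). The RPL13 pair was tight within each group, while the RPL22 call depended on control replicate 1: without it the change was 0.68 and no longer called. RPL15 stood at the fold minimum and lost its call without control replicate 1, control replicate 2 or dry replicate 1, with a change of −0.95 without the first and −0.96 without the second of these. With the deposited or median-centred scaling, RPL27 (0.86) and RPL15 (−0.78) were also under the fold minimum.

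No RPL pair was called by limma in 90 min against dry cells, beside 3.03% of all pairs, and 3 had an unadjusted p under 0.05, beside 27.3% of all pairs. The lowest adjusted p was 0.017, for RPL27 with 0.89 ± 0.23, under the fold minimum, followed by 0.0395 for RPL14 with 0.73 ± 0.23. In 360 min against control cells 6 RPL pairs were called, beside 36.4% of all pairs, and 2 held a set-apart copy, RPL37 (2.63 ± 0.53) and RPL24 (−2.31 ± 0.43). RPL27 had the largest change, with 0.84, 1.54 and 1.34 at 360 min, against −1.25, −1.71 and −1.59 in control cells (2.75 ± 0.23, adjusted p = 1.7e-08). The A copy differed from its control signal by −0.73 ± 0.24, and the B copy by −3.48 ± 0.21. RPL9, with 1.62, 1.67 and 2.56 at 360 min, against −0.24, 0.73 and −0.11 in control cells, changed by 1.82 ± 0.30 (adjusted p = 4.88e-05). RPL31 changed by 1.97 ± 0.25, which was −0.28 with the second RPL31A probe set, and RPL13 by −1.46 ± 0.16, and A minus B of RPL13 was −1.77, −1.75 and −1.65 at 360 min, close to its values in dry cells. For RPL7, RPL36 and RPL15, called at earlier stages, the change at 360 min against control cells was 0.01 ± 0.26, 0.11 ± 0.30 and 0.02 ± 0.19, without a call. RPL6 and RPL22, also called earlier, still differed at 360 min by −0.71 ± 0.24 (limma adjusted p = 0.0135) and 0.83 ± 0.30 (adjusted p = 0.0229). Both were under the fold minimum.

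**Figure D4:**
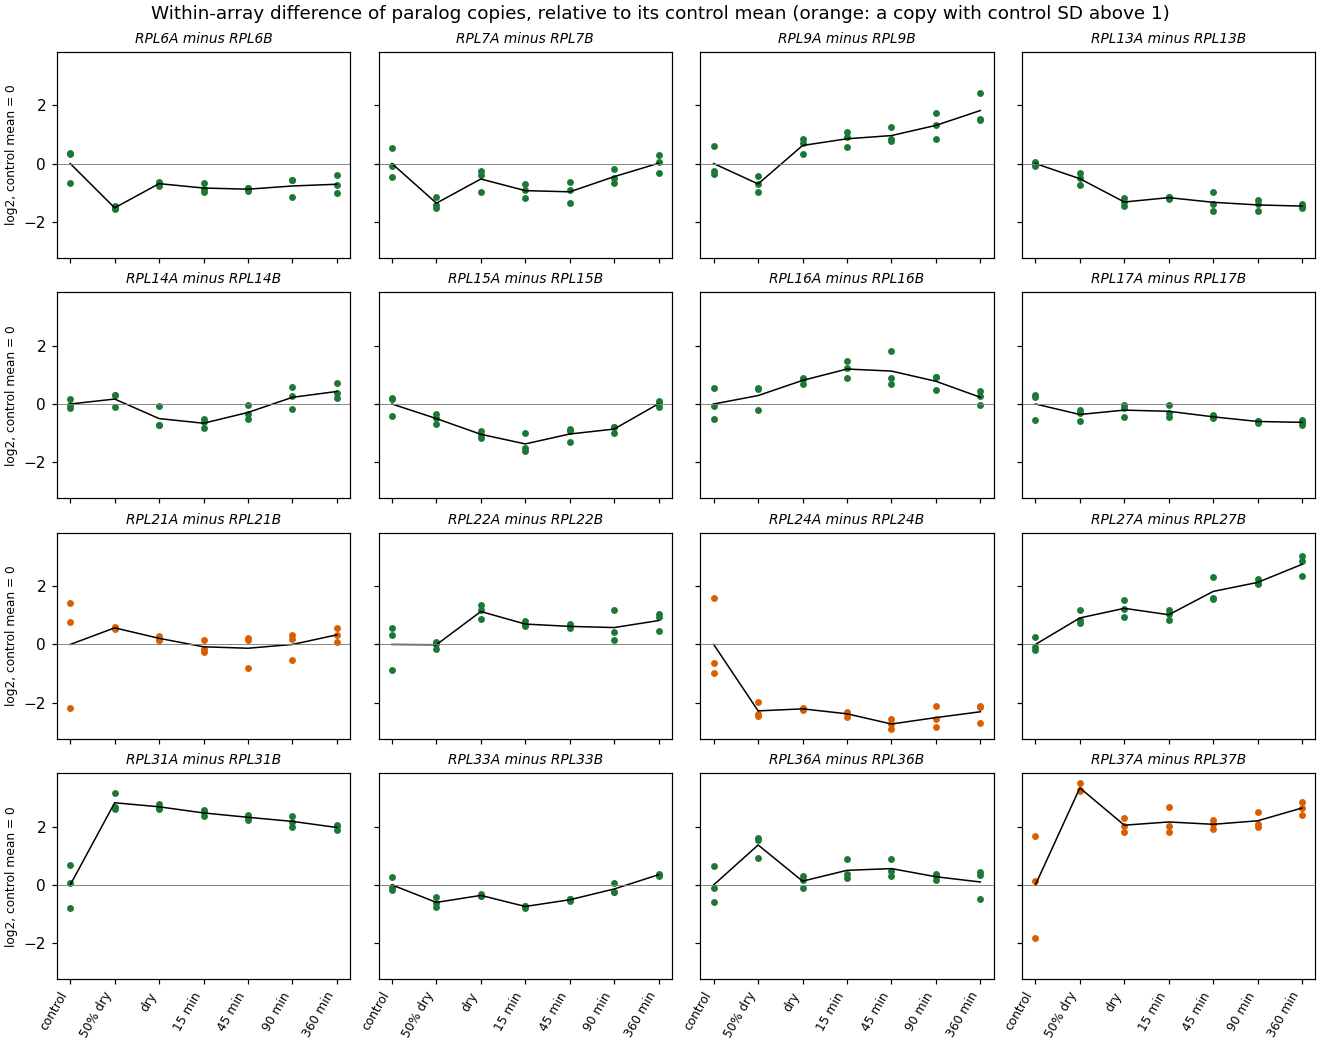
Log2 signal of the A copy minus that of the B copy on each array, shifted so that its control mean is 0, for the 16 RPL pairs in the order of the course (points are arrays, lines join group means; orange marks the 3 pairs with a copy whose control SD is above 1). RPL27 climbs to 2.75 at 360 min and RPL13 settles at −1.46, while RPL7 lies at −1.36 at 50% dryness and at 0.01 at 360 min.

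The 4 genes set apart differed from the rest mainly through the control arrays, whose spread was the rule that set them apart. RPL21A read 2335, 2098 and 2039 in 50% dry cells, against 138 on control replicate 1 and a listed 0 on the other control arrays, so the fitted difference of 5.92 ± 0.54 depends on the value added before the logarithm. RPL21B read 4393, 3861 and 3268 in 50% dry cells, against 145, 195 and 9.9 in control cells (5.35 ± 0.44, adjusted p = 3.55e-09). RPL37A read 2678, 2347 and 2482 in 50% dry cells, against 146, 1643 and 722 in control cells (2.21 ± 0.48, adjusted p = 0.000577). RPL24B read 2666, 2693 and 2695 in 50% dry cells, against 593, 3137 and 3317 in control cells, with no call (0.62 ± 0.40, adjusted p = 0.206). In RPL37A and RPL24B control replicate 1 was the lowest array, as it was for RPL10 and RPL31A, whereas in RPL21A it was the highest.

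After the control group, the same 4 genes followed the others. Over the 18 arrays without control, the correlation of each with the median of the 38 genes was 0.91 for RPL21A, 0.92 for RPL21B, 0.94 for RPL37A and 0.96 for RPL24B, while over all 21 arrays it was −0.53, −0.62, 0.13 and 0.40. RPL31A behaved alike, with 0.97 without and 0.36 with the control arrays, and RPL10 had 0.60 and −0.13. RPL17A, RPL28, RPL33A and RPL38 had the courses most like the median, each with 0.99 over 21 arrays. RPL15B was the least like it after control, with −0.24 over 18 arrays, since its signal of 583, 598 and 618 in dry cells was no lower than the 442, 639 and 538 of 50% dry cells. These arrays share their scaling and their groups, so the correlations are descriptions.

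**Figure D5:**
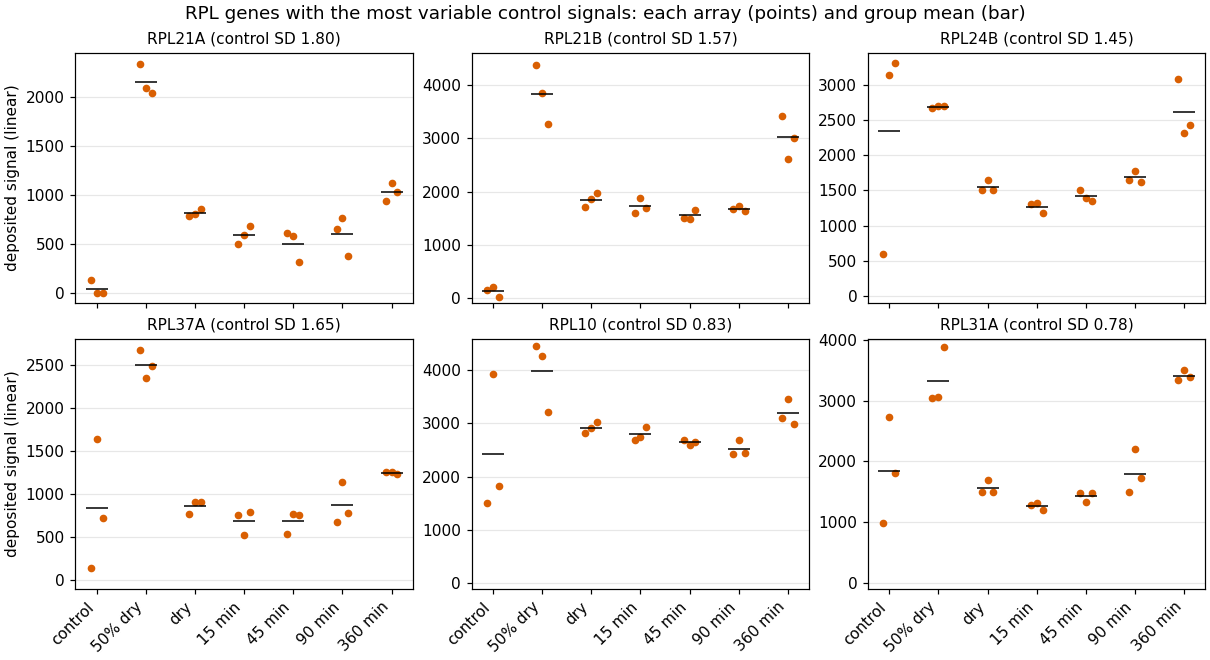
Deposited signal (linear axis from near 0) of the 4 genes set apart and of RPL10 and RPL31A on each array, with the group mean as a bar. RPL21A and RPL21B are near 0 on control arrays and at 2039 or more in 50% dry cells. The genes shown are those with the largest control SD among the RPL genes, so the wide spread of their control arrays follows from that choice.

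Of the 7 genes with several probe sets of their own, RPL17A had the widest disagreement in 50% dry against control cells. The probe set used for RPL17A, of the type that Affymetrix marks as matching a family of similar sequences, gave −1.81 ± 0.09 in 50% dry against control cells, and a second one, marked as having fewer probes that meet the design rules, gave 3.65 ± 0.11. In dry against 50% dry cells their differences were −0.88 ± 0.09 and −1.35 ± 0.11. Against control cells they were called in opposite directions at later stages too. The differences were −2.69 ± 0.09 and 2.30 ± 0.11 in dry cells, and −1.91 ± 0.09 and 3.17 ± 0.11 at 360 min. RPL17A is counted as lower in both comparisons by the probe set used. The probe sets of RPL7A ran from −2.83 to −0.12 and those of RPL17B from −3.22 to −0.92 in 50% dry against control cells. Probe sets that name several genes, all of them RPL genes, are given by count only. Of 38, 25 were lower, 1 higher and 12 neither in 50% dry against control cells. In dry against control cells 31 were lower, 1 higher and 6 neither, with a median of −2.02. Of all probe sets, 13.9% were lower and 13.1% higher in the first comparison and 17.5% each way in the second. At 360 min against control cells 26 of the 38 were lower and 1 higher, beside 21.4% and 19.7% of all probe sets.

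Grouped by place in the subunit, proteins of the exit tunnel and its mouth had 7 of 15 genes measured, of which 6 were lower in 50% dry against control cells and 1, RPL31A, higher, and 6 were lower in dry against control cells. These counts depend on the probe set used. In the same comparisons the second one of RPL31A was called lower (−1.49 and −2.27), and the second one of RPL17A higher (3.65 and 2.30). Around the centre where translation factors bind, 7 of 13 genes were measured, with 5 lower at 50% dryness and 6 in dry cells, both against control cells. The proteins that carry 5S rRNA and their neighbours had 4 of 8 genes measured, RPL5, RPL10, RPL21A and RPL21B, and 3 were higher in 50% dry against control cells. That count rests on RPL10 and on both set-apart RPL21 copies, and RPL5 differed by −0.71 ± 0.14, under the fold minimum. Among all probe sets, 13.9% were lower and 13.1% higher in 50% dry against control cells, and 17.5% were called in each direction in dry against control cells.

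The genes of the acidic stalk, the flexible arm that recruits translation factors, did not move as one against control cells. All 5 differences were below 0 in dry against 50% dry cells, as were those of 4427 of 9275 probe sets. At 360 against 90 min all 5 were above 0, beside 4560 of 9275. Between 45 and 15 min 2 were below 0 and 3 above. RPP0, the anchor of the stalk, was higher in 50% dry than in control cells (4.24 ± 0.22, adjusted p = 5.51e-12), as was RPP2B (1.88 ± 0.41, adjusted p = 0.000669), whose SD reached 1.48 within a group. RPP1B was lower at that point (−1.55 ± 0.10) and RPP2A in dry against 50% dry cells (−1.59 ± 0.18). At 360 min RPP2A was higher than in dry cells (1.36 ± 0.18), and RPP1A was called in none of these comparisons. The small subunit genes, whose symbols begin with RPS, were counted in the same way. Of 33, 18 were lower and 4 higher in 50% dry against control cells, 26 and 2 in dry against control cells, and 21 and 5 at 360 min against control cells, with medians of −1.04, −2.02 and −1.38. The shares of all probe sets lower and higher were 13.9% and 13.1% in the first of these comparisons, 17.5% each in the second, and 21.4% and 19.7% in the last. At 360 min against dry cells 11 of 33 RPS genes were higher and none lower by limma, beside 11.4% and 11.7% of all probe sets, and 24 had an unadjusted p under 0.05, as did 62.4% of all probe sets.

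Among 12 known regulators of ribosomal protein genes, 5 were higher in 50% dry than in control cells, none lower by limma and 7 neither, beside 13.1% of all probe sets higher and 13.9% lower, and 9 had an unadjusted p under 0.05, beside 60.8% of all. CRF1, a corepressor that displaces Ifh1 from these promoters, had the largest difference with 4.12 ± 0.13 (adjusted p = 3.58e-15). SCH9, which encodes a kinase downstream of TOR complex 1, was higher by 2.48 ± 0.17, and TOD6, a repressor of ribosome biogenesis genes, by 2.47 ± 0.16. IFH1, the activator itself, was higher by 1.51 ± 0.14, and STB3, another repressor of growth genes, by 1.10 ± 0.09. In dry against control cells FHL1, which binds the promoters and holds Ifh1, was also higher (1.51 ± 0.12), making 6 of 12, beside 17.5% of all probe sets. At 360 min against dry cells 5 were lower and none higher by limma, beside 11.7% and 11.4% of all probe sets, namely ABF1 (−1.74 ± 0.18), CRF1 (−1.62 ± 0.13), SCH9 (−1.44 ± 0.17), IFH1 (−1.21 ± 0.14) and TOD6 (−1.12 ± 0.16). Against control cells CRF1 was still higher at 360 min (2.82 ± 0.13), as were STB3 (2.23 ± 0.09), FHL1 (1.90 ± 0.12) and SCH9 (1.51 ± 0.17), while ABF1, a general promoter-binding factor, was lower (−1.62 ± 0.18), where 19.7% of all probe sets were higher and 21.4% lower. These are transcript levels, and the activity of the proteins was not measured.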

How the data were processed

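Per the labels' protocols, the authors hybridized target cRNA to Affymetrix yeast arrays. Affymetrix's GeneChip analysis software served for the raw images, and probe set signals went through a signed rank test (Wilcoxon) and a linear mixed model in 2 steps. The deposited values are linear intensity signals per probe set. Their 2% trimmed mean was 500.2 to 500.5 on every array, while array medians ran from 141.2 to 207.3. The software version, scaling and genome build are not given in the sources used here. Probe sets were named from the platform's annotation: of 9275 tested (60 control sets left out), 6504 named 1 gene, 328 several and 2443 none.

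Signals were turned to log2(signal + 17.74), 10% of the median of 177.4, and quantile normalized. limma 3.58.1 in R 4.3.3 fitted the mean of each group on all 21 arrays, with variances moderated along a trend with level (14 residual and 4 prior degrees of freedom). Calls needed a Benjamini-Hochberg adjusted p under 0.05 over the 9275 probe sets and a 2-fold difference. SE is that of the fit, which pools the spread of all groups. Pair differences were fitted without trend and adjusted over 33 pairs. The procedure was tested on simulated data. Tables were handled with Python 3.11.15, pandas 2.3.3 and numpy 2.4.6, and plots drawn with matplotlib 3.10.9. The number of arrays, 3 per group, limits the precision of each value.

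The members, lists, tests and thresholds were chosen with earlier results of these data known. Named were, per comparison, up to 3 largest rises and falls among called genes whose arrays did not overlap and whose control SD was at most 1, genes called against the majority, all genes set apart, pairs called, single-copy genes, and called stalk and regulator genes. Other genes named were chosen after their values were seen. They include RPL6B, genes listed by regained share or by likeness, and the chaperones and assembly factors. Same-numbered arrays correlated in their deviations from group means at −0.24 to 0.24, so the replicate numbers do not pair the samples. Alternatives were another added value, other scalings, a filter on dim probe sets, no trend, no fold minimum, a replicate or run block, only the arrays compared, all probe sets of a gene, and leaving out each array; other probe sets of a copy in the pairs called were added after seeing the data.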

Additional observations from a re-analysis of the deposited data

How the results depend on the processing

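Counts of RPL genes and pairs kept their direction under the alternatives run, and most stayed within 1.5 times. In dry against 50% dry cells 19 genes were lower with the deposited scaling and 22 with median-centred arrays, and 21 to 25 were called when leaving out each array. At 360 min against control cells 29 were lower with the deposited scaling and 21 with median-centred arrays. Without a fold minimum, the calls were 32 at 360 against 90 min, 29 at 360 min against dry cells, 1 at 15 min against dry cells, 1 at 45 against 15 min, 5 at 90 against 45 min and 6 at 90 min against dry cells; pairs called were 11 in 50% dry against control cells, 2 at 90 min against dry cells and 10 at 360 min against control cells. At 360 against 90 min the count was 3 with 50% of the median added, 13 with median-centred arrays and 4 to 13 when leaving out each array; at 360 min against dry cells it was 21 with median-centred arrays. The median of all probe sets then moved to 0.14 and 0.27, and that of the members to 0.90 and 1.01; with the deposited scaling it was −0.20 for all probe sets at 360 min against dry cells and 0.55 for the members. Pairs called at 90 min against dry cells numbered 0 to 1 when leaving out each array, with 1 without dry replicate 2.

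RPL31A in 50% dry against control cells was −0.13 with the mean of its probe sets (adjusted p = 0.526), 0.96 with the deposited scaling and 0.77 median-centred. In dry against control cells, the RPL15 pair had −0.78 and the RPL27 pair 0.86 under both of these scalings, and the RPL22 pair 0.41 with 50% of the median added; with only the arrays compared, the RPL22 and RPL37 pairs lost their calls. With other probe sets of a copy, an alternative chosen after seeing the data, the RPL7 pair in 50% dry against control cells reached 0.96 and the RPL31 pair at 360 min against control cells −0.28, both of opposite sign. The cause was not tested. With the replicate block 27 RPL genes were lower in dry against 50% dry cells, 12 were higher at 360 min against dry cells, and no count changed. The run block gave 26 lower in dry against 50% dry cells. It cannot separate run from group in comparisons with control, 90 min or 360 min cells, each of which made up a run of its own. A planned description of promoter motifs was not run.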

Other observations

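Genes of a list that joins chaperones and loaders of large subunit proteins with factors of subunit assembly and export were called in both directions. In 50% dry against control cells ALB1 and REI1 were higher and RRB1 was lower. Of 11 such genes, all measured, 2 were higher and 1 lower in 50% dry against control cells, beside 13.1% and 13.9% of all probe sets, and 6 were lower and none higher by limma in dry against 50% dry cells, beside 5.05% and 3.06% of all probe sets, with 9 at an unadjusted p under 0.05, as were 43.4% of all probe sets. RRB1, whose product escorts Rpl3, was lower in both steps (−1.22 ± 0.14 and −1.88 ± 0.14), and in dry against control cells it differed by −3.10 ± 0.14, next to −2.49 ± 0.14 for RPL3 itself. SQT1, the loader of Rpl10, was lower in dry than in control cells (−2.12 ± 0.19), where RPL10 was not called. SYO1, the import carrier of Rpl5 and Rpl11, was lower too (−1.24 ± 0.23).

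RLP24, which holds the place of Rpl24 in the precursor, differed by −1.52 ± 0.13 in dry against control cells. REI1 and JJJ1, which act together in the cytoplasm to release the export factor Arx1, were higher in dry than in control cells, by 1.56 ± 0.14 and 1.13 ± 0.16. At 360 min against control cells 5 of the 11 were lower and 2, REI1 and JJJ1, higher, beside 21.4% and 19.7% of all probe sets, with RRB1 at −2.73 ± 0.14 and RLP24 at −2.20 ± 0.13. None of the 11 was called at 360 min against dry cells by limma, with 5 at an unadjusted p under 0.05, beside 62.4% of all probe sets, while 12 of 42 RPL genes were called. The difference between these lists was not tested.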
